A study of Mus musculus with 6 samples.

Results

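The genes described here are 40 genes of the cell cycle and of DNA replication, taken from a list of gene names. They were followed in macrophage cultures that carried or lacked the transcription factor c-Maf. All 40 were on the array, and 39 passed the filter on dim probes, among 20252 genes and unnamed features that did. Ccne2, the gene of cyclin E2, was well above background on only 1 of 5 arrays and did not pass. The cultures are called polarized M2-like BMM by the labels, BMM being macrophages grown from bone marrow. Their source was fetal liver chimeras, mice whose blood system was rebuilt from a WT or a c-Maf KO fetal liver. The WT group held 3 samples and the c-Maf KO group held 3 samples. The scanner outputs of WT replicates 1 and 3 are both named as WT 3, so it is not certain that they are separate samples, which bears on each WT SD and n. Their log2 values differed with an SD of 0.312 over genes, beside 0.309 and 0.312 for the other WT pairs. Both groups were grown in M-CSF at 10 ng/ml, which was added daily from day 4. The strain and age of the mice, the part of Maf that was deleted and the share of host cells in the cultures were not stated in the text used here. The labels do not say whether the 3 samples of a group came from separate mice, so a p-value reflects how far these samples spread, and that spread may be technical.

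M-CSF, through its receptor Csf1r, drives monocyte precursors both to divide and to become macrophages, and macrophages usually leave the cell cycle as they mature. In a dividing cell, D-type cyclins with Cdk4 and Cdk6 release E2F factors from pocket proteins of the Rb family. E2F factors then switch on the genes of DNA replication. A later wave, which peaks at mitosis, holds the cyclin B genes, the mitotic kinases and the genes of the spindle and the kinetochore. In RNA from a whole culture, fewer dividing cells and less RNA per dividing cell cannot be told apart.

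The cultures of both genotypes had cell cycle transcripts well above background. Of the 39 kept members, none passed the test between c-Maf KO and WT. The test was limma's moderated test on log2 values with Benjamini-Hochberg adjustment over all genes kept, at an adjusted p under 0.05. Over all genes the same test called 7, or 0.0346%. The lowest adjusted p of a member was 0.196, for Ccnd2. At an unadjusted p under 0.05, 1 member passed, against 12.6% of all genes. Values are given as log2 ratios to the gene's median over the 6 samples, and differences are c-Maf KO minus WT.

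The differences of the members were small. Their median was -0.067, beside 0.0018 over all genes, and 28 of 39 were negative, against 49.3% of all genes. The median was -0.0080 without c-Maf KO replicate 1, -0.099 without c-Maf KO replicate 2 and -0.073 without c-Maf KO replicate 3. It was -0.034 without WT replicate 1, -0.12 without WT replicate 2 and -0.038 without WT replicate 3. Apart from Ccnd2, the differences lay between -0.21 for Mki67 and 0.196 for Ccnd1. The 95% interval of the difference lay within 1 log2 unit of 0 for 38 of the 39 members, against 91.7% of all genes. It lay within 0.5 log2 units of 0 for 36 members, against 71.1% of all genes. The 3 others were Ccnd2, Cdk6 and Mki67. The WT and c-Maf KO samples were free of overlap for 1 member, Ccnd2, whereas they did not overlap for 20.0% of all genes.

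**Figure D1:**
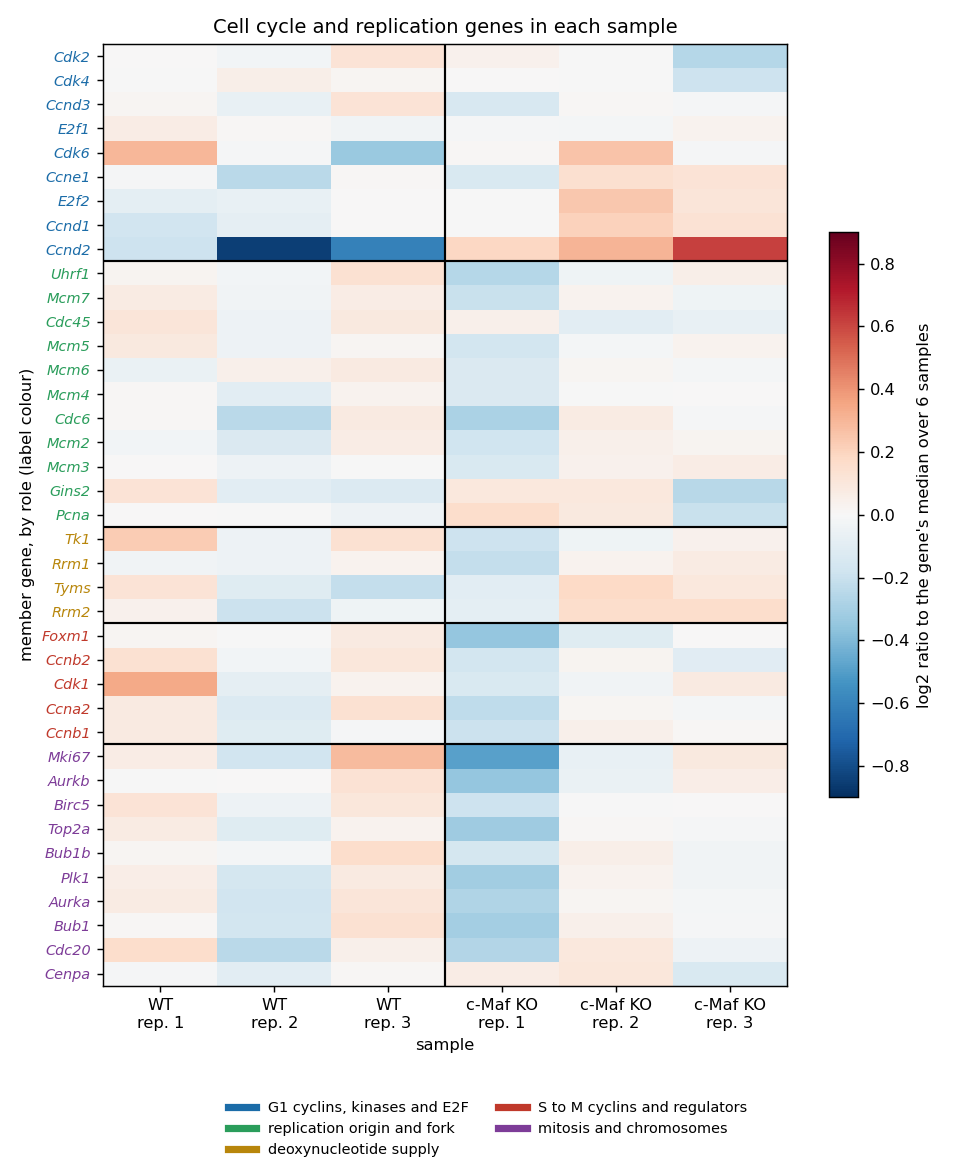
Log2 ratio of each of the 39 kept members (rows, grouped by role, label colour giving the role) to its median over the 6 samples (columns); red is above and blue below the median. Ccnd2 is blue in the 3 WT samples and red in the 3 c-Maf KO samples, and the column of c-Maf KO replicate 1 is blue over most genes of the later cycle.

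**Figure D2:**
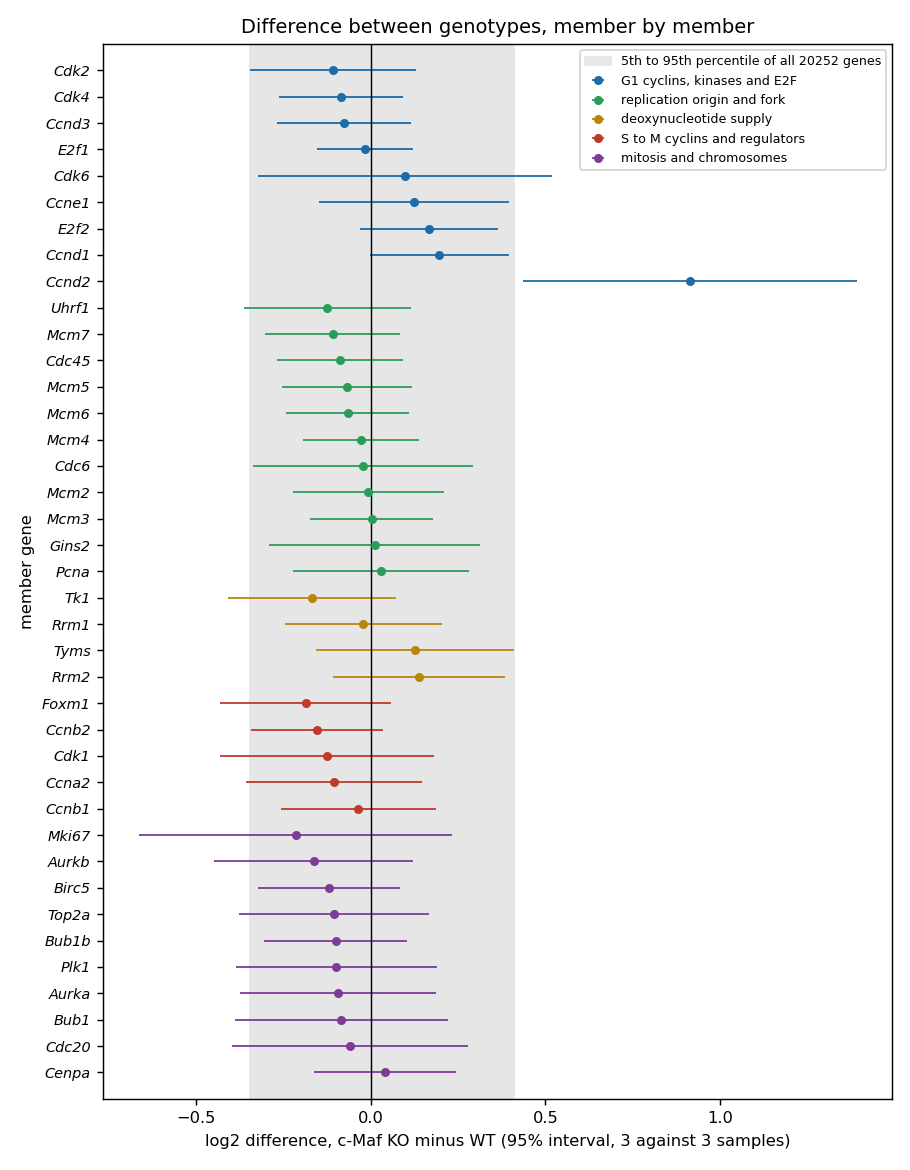
Log2 difference, c-Maf KO minus WT, of each kept member (points) with its 95% interval from limma (bars, 3 against 3 samples); the grey band spans the 5th to 95th percentile of the differences of all 20252 genes. The interval of Ccnd2 (0.44 to 1.39) is the only one among the 39 that does not include 0.

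The only member without overlap between genotypes was Ccnd2, which encodes cyclin D2, a partner of Cdk4 and Cdk6 in G1. Its log2 ratios were -0.18, -0.84 and -0.61 in the WT cultures, in replicate order, and 0.18, 0.31 and 0.61 in those without c-Maf. All 3 c-Maf KO samples lay above all 3 WT samples, and WT replicate 1 was the WT sample nearest to them. WT averaged -0.55 ± 0.33 (SD, n = 3). The c-Maf KO group averaged 0.37 ± 0.22 (SD, n = 3). The c-Maf KO level was 1.88 times the WT level, a log2 difference of 0.91 (SE 0.195, limma adjusted p = 0.196), and did not pass. The difference was between 0.76 and 1.09 when any 1 of the 6 samples was left out, and the adjusted p between 0.0855 and 0.433. The gene has 1 kept probe (chromosome 6, 127098696 to 127098755, mm9), which was well above background on all 5 arrays with scanner files.

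Fibroblast and stromal markers were, like Ccnd2, higher on average in c-Maf KO. All 16 kept markers of that list had positive differences. The genotypes did not overlap for 12 of the 16, against 20.0% of all genes. None passed the test, and 12 of the 16 were at an unadjusted p under 0.05, against 12.6% of all genes. The mean log2 ratio of the 16 markers was -0.07, -0.95 and -0.64 across WT and 0.22, 0.12 and 0.57 across c-Maf KO. WT replicate 2 was the lowest sample and c-Maf KO replicate 3 the highest for both Ccnd2 and this mean. Over all genes, WT replicate 2 was lowest for 14.9% and c-Maf KO replicate 3 highest for 9.27%. The order of c-Maf KO replicates 1 and 2 differed, at 0.18 and 0.31 for Ccnd2 against 0.22 and 0.12 for the mean. Dcn had the largest difference of that list, 1.07. Pdgfra, a receptor of mesenchymal cells, had a difference of 1.05 (SE 0.31, adjusted p = 0.276). Over the processing alternatives these differences ranged from 0.35 to 1.07 for Dcn and from 0.54 to 1.09 for Pdgfra. Csf1, which encodes M-CSF itself, was lowest and highest in the same samples as Ccnd2. Its log2 ratios were -0.16, -1.10 and -0.74 in WT and 0.16, 0.18 and 0.47 in c-Maf KO (difference 0.93, SE 0.24, adjusted p = 0.245). The part of stromal cells in the Ccnd2 difference was not tested.

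**Figure D3:**
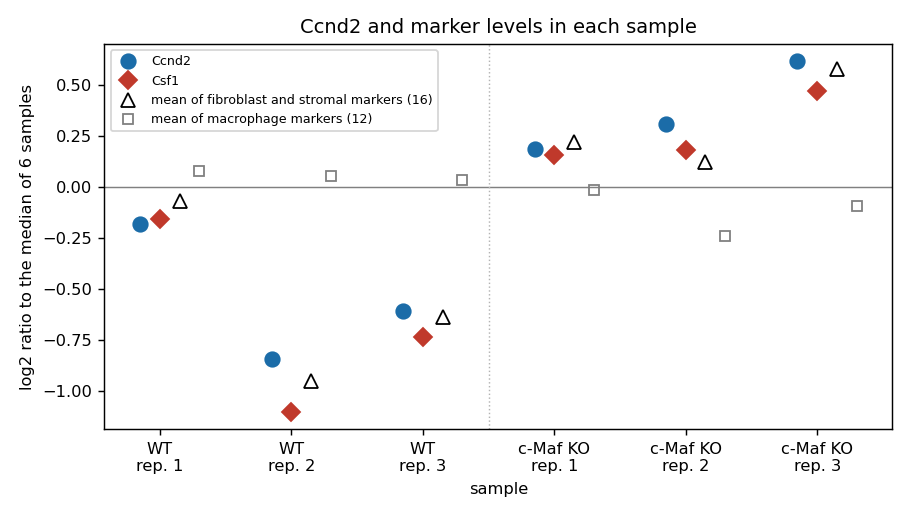
Log2 ratio to the median of 6 samples for Ccnd2 (circles), Csf1 (diamonds), the mean of 16 fibroblast and stromal markers (triangles) and the mean of 12 macrophage markers (squares) in each sample. Ccnd2, Csf1 and the stromal mean are lowest in WT replicate 2 (-0.84, -1.10 and -0.95) and highest in c-Maf KO replicate 3 (0.61, 0.47 and 0.57).

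The other genes that act in G1 differed little. Ccnd1, which encodes cyclin D1, had log2 ratios of -0.17, -0.082 and 0.0019 in WT and -0.0019, 0.21 and 0.13 in c-Maf KO. The groups overlapped by the margin between WT replicate 3 and c-Maf KO replicate 1 (difference 0.196, 95% interval -0.0029 to 0.396, adjusted p = 0.403). E2f2, an activator of the E2F family, measured 0.17 (interval -0.029 to 0.36), while E2f1, its close relative, measured -0.016 (-0.15 to 0.12). E2f1 had the smallest SD over the 6 samples among the members, at 0.036. The 3 D-type cyclins did not move alike, since Ccnd3 measured -0.076 (interval -0.27 to 0.12).

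The kinases of G1 showed no gap between genotypes. Cdk4 measured -0.084 and Cdk2, the partner of cyclin E, -0.11, with intervals of -0.26 to 0.093 and -0.34 to 0.13. Cdk6 varied most among the G1 kinases, at 0.30, -0.0072 and -0.33 in WT and 0.0072, 0.25 and -0.012 in c-Maf KO. Its c-Maf KO samples all lay inside the WT range, so its difference of 0.098 (interval -0.32 to 0.52) was smaller than the spread within WT. The Cdk6 probe passed the filter but was faint, with a mean intensity of 41.2 against 274 for Cdk2 and 12840.5 for Cdk4. Ccne1, cyclin E1, measured 0.12 (interval -0.15 to 0.396). Ccne2, which did not pass the filter, had log2 ratios of 1.03, -0.070 and 0.070 in WT and -0.22, 0.46 and -0.25 in c-Maf KO, which are values of a mostly undetected signal.

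Genes of the replication origin and fork were close between genotypes. Of these 11 genes, 8 were lower on average in c-Maf KO (median -0.027, range -0.12 to 0.030), and all 11 intervals lay within 0.5 log2 units of 0. The 6 subunits of the MCM2-7 helicase, which unwinds DNA at the fork, had differences from -0.11 for Mcm7 to 0.0033 for Mcm3. Mcm3 was at 0.0014, -0.043 and -0.0014 in WT and -0.13, 0.037 and 0.064 in c-Maf KO, so the WT values lay within the c-Maf KO range. Cdc6, which loads the helicase at origins, measured -0.022 (interval -0.34 to 0.29). Cdc45 and Gins2, which activate the loaded helicase, measured -0.087 and 0.011.

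Pcna, the sliding clamp of the DNA polymerases, was at 0.0033, -0.0033 and -0.045 in WT and 0.16, 0.087 and -0.20 in c-Maf KO. Its c-Maf KO samples lay on both sides of WT, and the difference was 0.030 (interval -0.22 to 0.28). Uhrf1, which recruits the maintenance DNA methyltransferase to new DNA, differed most in this group. It measured 0.023, -0.023 and 0.13 in WT and -0.25, -0.036 and 0.054 in c-Maf KO (difference -0.12, SE 0.097, adjusted p = 0.620). The groups overlapped, and a dimmer Uhrf1 probe had a difference of the other sign (0.084).

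Enzymes of deoxynucleotide supply went both ways. Tk1, thymidine kinase, was at 0.23, -0.048 and 0.14 in WT and -0.18, -0.041 and 0.041 in c-Maf KO (difference -0.17, SE 0.098, adjusted p = 0.530). Rrm2 and Rrm1, the small and large subunits of ribonucleotide reductase, measured 0.14 and -0.020. Tyms, thymidylate synthase, measured 0.13. The values of the genotypes overlapped for all 4.

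Most later genes of the cycle were lowest in c-Maf KO replicate 1 by their brightest probe. The 15 members that act from S phase to mitosis had a median difference of -0.10, and 14 were negative, yet none passed. In c-Maf KO replicate 1, 14 of these 15 had their lowest value of the 6 samples, or 93.3%, where 15.3% of all genes did. This count takes 1 probe per gene. Of 8 other kept probes of 5 of these genes, 3 were lowest in that sample (both of Birc5 and that of Mki67), while those of Ccnb1, Cdk1 and Foxm1 were lowest in a WT sample. The exception among the 15 was Cenpa, the centromeric histone, at 0.064 in that sample. The trait was not particular to the 15. By the same probes, that sample was lowest for 8 of 11 replication members, 2 of 4 of deoxynucleotide supply and 1 of 9 of G1. Over the 39 kept members it was lowest for 25, or 64.1%. Without c-Maf KO replicate 1 the median difference of the 15 was -0.030, and 9 were negative. It was -0.055 without WT replicate 3 and -0.17 without WT replicate 2, so WT samples moved it too. The values of that sample come from the value table alone, with no scanner output used, so its spot flags and its detection calls are unknown. It is also the highest of the 6 samples for 25.4% of all genes.

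Mki67, which encodes the proliferation antigen Ki-67, differed most in this set. Its log2 ratios were 0.065, -0.17 and 0.28 in WT and -0.49, -0.065 and 0.084 in c-Maf KO. The value of c-Maf KO replicate 1 lay below all others, and the 2 other c-Maf KO samples lay inside the WT range. The difference was -0.21 (SE 0.18, 95% interval -0.66 to 0.23, adjusted p = 0.647). A dimmer Mki67 probe had a difference of -0.22, with -0.44 in c-Maf KO replicate 1, whereas the dimmer Foxm1 probe and both dimmer Ccnb1 probes were lowest in WT replicate 2.

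Foxm1, the transcription factor of the mitotic wave, was at 0.017, -0.0011 and 0.084 in WT and -0.35, -0.11 and 0.0011 in c-Maf KO (difference -0.18, SE 0.0999, adjusted p = 0.497). Only c-Maf KO replicate 3 reached the WT values. Cdk1, the kinase of mitotic entry, was at 0.34, -0.081 and 0.031 in WT and -0.14, -0.031 and 0.082 in c-Maf KO (difference -0.12, adjusted p = 0.699). WT replicate 1 stood highest, and the other 5 samples lay close together. Its partners Ccnb1, Ccnb2 and Ccna2 measured -0.035, -0.15 and -0.11.

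Aurkb, the kinase of the chromosomal passenger complex, was at -0.0066, 0.0066 and 0.13 in WT and -0.35, -0.061 and 0.058 in c-Maf KO (difference -0.16, adjusted p = 0.588). Its partner in that complex, Birc5 (survivin), measured -0.12. Cdc20, the activator of the anaphase-promoting complex, was at 0.16, -0.24 and 0.044 in WT and -0.26, 0.094 and -0.044 in c-Maf KO. WT replicate 2 and c-Maf KO replicate 1 were both low, and the difference was -0.059 (interval -0.396 to 0.28). The spindle kinases Aurka and Plk1 measured -0.093 and -0.098, the checkpoint kinases Bub1 and Bub1b -0.084 and -0.10, and the topoisomerase Top2a -0.10.

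The later genes thus varied between cultures of the same genotype. Among the 3 WT samples, replicate 2 was the lowest for 14 of the 15, against 30.0% of all genes. Among the 3 c-Maf KO samples, replicate 1 was the lowest for 14 of the 15, against 26.8%. The mean log2 ratio of the 10 mitosis members was 0.057, -0.12 and 0.11 in WT and -0.26, 0.022 and -0.014 in c-Maf KO. The means of c-Maf KO replicates 2 and 3 lay within the WT range. For the 11 replication members the means were 0.032, -0.064 and 0.036 in WT and -0.11, 0.021 and -0.037 in c-Maf KO, again with c-Maf KO replicate 1 lowest. For the 9 members of G1, c-Maf KO replicate 1 had a mean of -0.0077, below 0.13 and 0.060 in the other c-Maf KO samples. The WT means were -0.0078, -0.14 and -0.077. It was the lowest of the 3 c-Maf KO samples for 5 of the 9, and the lowest of all 6 for Ccnd3.

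**Figure D4:**
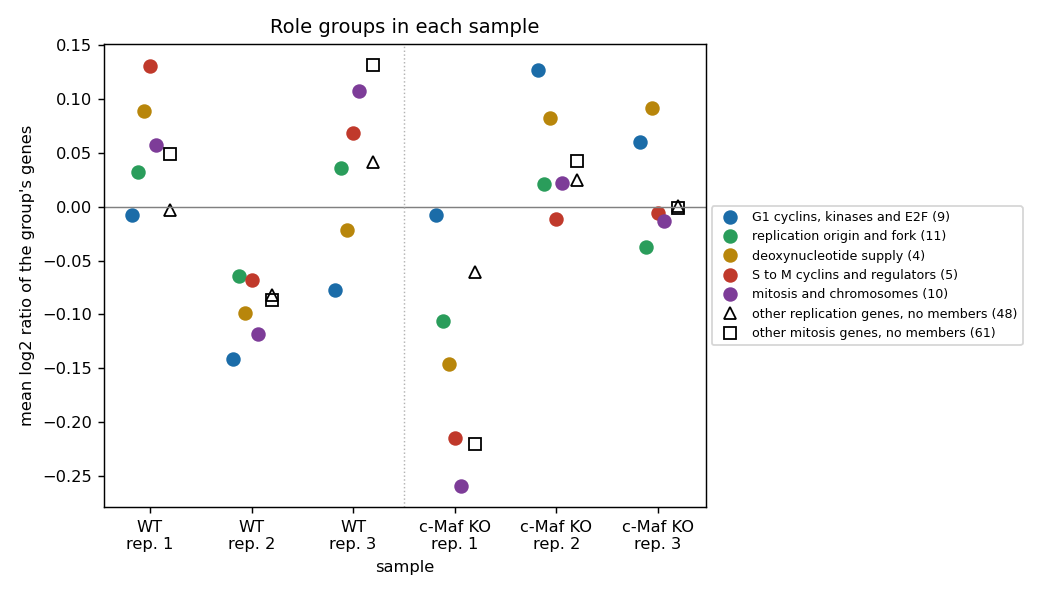
Mean log2 ratio of each role group of members (filled circles), and of 48 other replication genes (open triangles) and 61 other mitosis genes (open squares), in each sample; numbers in the legend are genes. The mitosis members and the other mitosis genes reach -0.26 and -0.22 in c-Maf KO replicate 1, below every other sample.

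The replication genes and the mitosis genes are known to be read by different promoter elements, and promoters of 3 later genes and 2 helicase genes are shown as examples of these. The CCAAT box is bound by NF-Y, the cell cycle homology region (CHR, searched as TTTGAA) by the MuvB core of the DREAM complex, and TTTNNCGC is a form of the E2F site. Sequences are from RefSeq on GRCm38.p6, and positions count back from the annotated start. The CCAAT box, the CHR and the E2F site on either strand are in capitals, and in Mcm5 and Mcm6 a pair of E2F matches on opposite strands overlap and run together. Mki67 is shown at chr7:135716460-135716579 (minus strand, -200 to -81) and Cdk1 at chr10:69352913-69353052 (minus strand, -140 to -1). Cdc20 is shown at chr4:118437344-118437423 (minus strand, -80 to -1), Mcm5 at chr8:75109349-75109498 (plus strand, -160 to -11) and Mcm6 at chr1:128359706-128359825 (minus strand, -120 to -1).
Mki67: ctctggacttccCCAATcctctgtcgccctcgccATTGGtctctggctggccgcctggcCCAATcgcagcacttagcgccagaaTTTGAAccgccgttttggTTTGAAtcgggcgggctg
Cdk1: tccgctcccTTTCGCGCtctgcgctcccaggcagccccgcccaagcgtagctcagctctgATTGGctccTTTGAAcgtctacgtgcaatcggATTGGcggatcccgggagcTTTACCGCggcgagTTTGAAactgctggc
Cdc20: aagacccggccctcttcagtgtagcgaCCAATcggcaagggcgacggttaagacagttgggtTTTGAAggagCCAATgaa
Mcm5: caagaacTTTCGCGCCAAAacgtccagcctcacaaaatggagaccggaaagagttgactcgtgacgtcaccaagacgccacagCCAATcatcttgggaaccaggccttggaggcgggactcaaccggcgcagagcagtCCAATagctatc
Mcm6: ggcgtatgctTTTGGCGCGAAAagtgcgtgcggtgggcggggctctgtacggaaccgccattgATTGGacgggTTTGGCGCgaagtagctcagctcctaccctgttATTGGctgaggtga

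Among the 32 members found in the promoter table, TTTGAA lay in the 300 bases around a start for 7 of 9 mitosis members and 2 of 3 members of the cyclin B and Cdk1 group. It lay there for 2 of 9 replication members, 1 of 7 G1 members (E2f2) and none of 4 of deoxynucleotide supply. TTTNNCGC lay there for 6 of 9 replication members, none of the 9 mitosis members, and Cdk1 of the cyclin B group. It also lay there for 3 of 7 G1 members (Cdk2, Cdk6 and E2f2) and 1 of 4 of deoxynucleotide supply (Tyms). Over all 32851 promoter windows the shares were 17.9% for TTTGAA, 5.17% for TTTNNCGC and 37.4% for CCAAT. The CCAAT box was in 24 of the 32 members. TGCTGA, the half-site of the Maf recognition element, was in 5 of the 32 (Ccnd3, E2f2, Uhrf1, Bub1 and Plk1). It was in 13.9% of the members' 36 windows, where 19.5% of all windows held it. Ccnd2, Ccnd1, Mcm4, Gins2, Ccne2, Foxm1, Ccna2 and Aurkb had no promoter window, so none of these elements was searched in them. All hits are matches of letters, and binding was not measured.

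Other genes of the same pathways, none of them members, were measured beside them. Of 61 kept mitosis genes, none passed the test (1 at an unadjusted p under 0.05), 51 had negative differences, and the median was -0.092. For 46 of the 61, c-Maf KO replicate 1 was the lowest of the 6 samples, against 15.3% of all genes, and without it the median was -0.022. The median was -0.051 without WT replicate 3, -0.145 without WT replicate 2 and -0.146 without c-Maf KO replicate 2. The samples of 4 did not overlap, all lower in c-Maf KO, which is 6.56% of the list against 20.0% of all genes. These were Espl1 (separase, -0.21), Ncapd2 (a condensin subunit, -0.199), Incenp (the scaffold of the passenger complex, -0.17) and Cep55 (an abscission protein, -0.12), with adjusted p from 0.378 to 0.570. Of 48 other replication genes, none passed (0 at an unadjusted p under 0.05), 25 were positive and 23 negative, and the median was 0.0013. Here c-Maf KO replicate 1 was lowest for 15, or 31.25%, also above the 15.3% of all genes. Cdt1, which loads the helicase with Cdc6, measured 0.17, and Gins4, Rfc2 and Rfc5 measured 0.12, 0.11 and -0.079. These 4, or 8.33% of that list, were its genes without overlap.

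**Figure D5:**
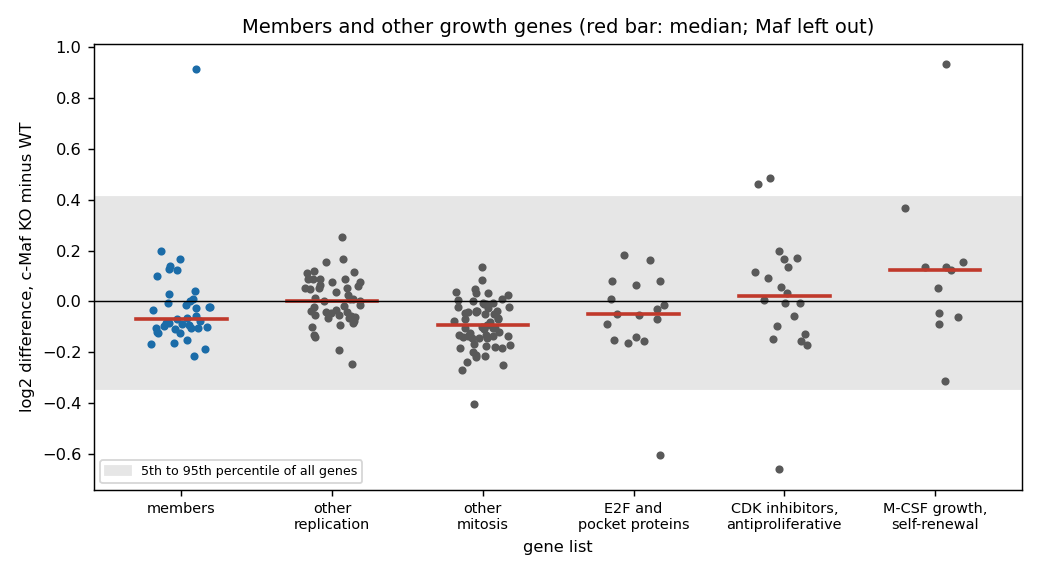
Log2 differences, c-Maf KO minus WT, of the 39 members and of 5 other lists of growth genes (1 point a gene, horizontal jitter only; red bars are medians, Maf left out); the grey band spans the 5th to 95th percentile of all genes. Most points of every list lie inside the band, with Ccnd2 (0.91) and Csf1 (0.93) highest, and Cdkn1c (-0.66) and Tfdp2 (-0.60) lowest.

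Among 17 kept genes of E2F factors, pocket proteins and their regulators, none passed (1 at an unadjusted p under 0.05), and 11 were negative (median -0.048). The pocket protein genes Rb1 and Rbl2 measured -0.090 and -0.15, and Cdc25a, the phosphatase that activates Cdk2, measured 0.18. The samples did not overlap for these 3 and for Tfdp2, which is 23.5% of the list, near the 20.0% of all genes. Tfdp2, a partner of E2F factors, measured -0.60, with -0.13, -0.058 and -1.32 in c-Maf KO against 0.13, 0.12 and 0.058 in WT. Its limma adjusted p was 0.511, and without c-Maf KO replicate 3 the difference was -0.19.

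Of 20 CDK inhibitors and other antiproliferative genes, all kept, none passed (4 at an unadjusted p under 0.05), and 11 were positive (median 0.020). Cdkn1c, the inhibitor p57, was at 0.31, 0.22 and 0.35 in WT and -0.22, -0.41 and -0.47 in c-Maf KO (difference -0.66, SE 0.084, adjusted p = 0.103). With a variance trend and robust fit its limma adjusted p was 0.0466. Btg3, an antiproliferative factor, was at -0.17, -0.22 and -0.17 in WT and 0.33, 0.32 and 0.17 in c-Maf KO (difference 0.46, SE 0.065, adjusted p = 0.115). In both genes the gap between the groups was wider than the spread within them. Ccng1 and Mdm2, which p53 induces, measured 0.20 and 0.17, and the inhibitor gene Cdkn2b measured 0.17, each without overlap and with adjusted p from 0.348 to 0.425. Trp53inp1 (0.14) was the only other gene of the list without overlap. Genes without overlap made up 30.0% of the list, 5 higher and 1 lower in c-Maf KO, against 20.0% of all genes.

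Of 12 genes of M-CSF growth and macrophage self-renewal, Maf fell and no other passed. The targeted gene Maf was at 1.92, 1.98 and 2.03 in WT and -2.22, -2.36 and -1.92 in c-Maf KO (difference -4.14, SE 0.12, adjusted p = 0.000558). The receptor gene Csf1r measured -0.088 (interval -0.25 to 0.071), Myc 0.051 (-0.12 to 0.22) and Klf2 -0.31 (-0.82 to 0.19). A change of 1 log2 unit lies outside these 3 intervals.

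All 12 kept macrophage markers were well above background on the 5 arrays. So were 15 of 16 kept stromal, 9 of 10 granulocyte and 5 of 5 monocyte markers. Of mast cell and basophil markers, 1 of 5 was. Detection alone therefore does not single out macrophages. The median difference of the 12 macrophage markers was -0.23, and 11 were negative. None passed (7 at an unadjusted p under 0.05, against 12.6% of all genes). The samples did not overlap for 66.7% of them, 7 lower and 1 higher in c-Maf KO, against 20.0% of all genes. The macrophage mean ranged from 0.034 to 0.077 in WT and from -0.24 to -0.018 in c-Maf KO. Mast cell and basophil markers varied most between samples, with means from -0.13 to 1.47 in WT and from -1.19 to 0.996 in c-Maf KO. Granulocyte means ranged from -0.20 to 0.49 and from -0.298 to 0.31, progenitor means from -0.11 to 0.32 and from -0.22 to 0.087, and erythroid means from -0.096 to 0.23 and from -0.13 to 0.44. Monocyte means ranged from -0.32 to -0.13 and from 0.16 to 0.21, lymphocyte means from 0.013 to 0.16 and from -0.13 to 0.13, and endothelial means from 0.053 to 0.080 and from -0.14 to 0.0040. Of the 5 kept monocyte markers, 80.0% were without overlap, 3 higher and 1 lower in c-Maf KO, and none passed (4 at an unadjusted p under 0.05). The part of these cell types in the values of the members was not tested.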

How the data were processed

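The authors scanned 1-colour Agilent arrays, and Agilent Feature Extraction (version 10.7.3.1) turned each spot into an intensity, with spatial and with multiplicative detrending, per the file headers. Probe positions are on mm9. The deposited value table holds a linear ratio per probe and sample. On the 5 arrays its log2 values, centred per probe, followed log2 processed intensity over the array's 75th percentile with a slope of 1.00. It was therefore read as that intensity over the probe's median of the 6 samples.

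Control probes were left out, and a probe was kept if well above background on at least 2 of 5 arrays (48.9% to 50.5% of probes per array were, and none was saturated). Each gene had its kept probe of highest mean intensity. Of the members 12 had several kept probes, and those of Ccnb1, Cdk4 and Uhrf1 differed in sign. Symbols were updated through RefSeq accessions for 28026 of 55681 probes. Where a probe lies within its transcript was not used here. The log2 ratios of all 6 samples were fitted with lmFit and eBayes of limma version 3.58.1 in R version 4.3.3, adjusted over 20252 genes; the number of arrays limits the precision. The fit was tested on simulated data. The members and gene lists were chosen with earlier results of these data known. Values in every sample are given for members whose groups do not overlap, the 6 of largest SD and the largest difference of each role; each list is described by up to 4 genes without overlap. Ccnd1, Mcm3, Pcna, Ccne2, Mdm2 and Trp53inp1 were added after their values were seen.

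Replicate numbers are shared between the genotypes, but deviations of same-numbered samples from their group means correlated at -0.028, -0.061 and 0.040, so the numbers were not taken as pairs. All 5 scanner files lie on 1 slide, WT in row 1 and the other genotype in row 2, and slide row cannot be told apart from genotype. The alternatives were the scanner intensities with and without normexp correction, quantile normalization, median centring, other filters, the mean of probes, other variance models, a replicate block, another threshold and each sample left out.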

Additional observations from a re-analysis of the deposited data

How the results depend on the processing

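No member passed limma's test under any of the alternatives run, and 1 member, Ccnd2, was at an unadjusted p under 0.05 in the 6-sample fit. The median difference of the members lay between -0.073 and 0.00046 over the alternatives and between -0.12 and -0.0080 when 1 sample was left out. Of all genes, 7 were called. The number was 22 with normexp on 5 arrays, 3 after quantile normalization, 2 with no filter on dim probes, 22 with probes well above background on all 5 arrays, 83 with trend and robust eBayes and 25 at an adjusted p under 0.10. It was 3 with the replicate block, whose numbers do not pair the samples. It ranged from 2 to 99 when 1 sample was left out, with 99 without WT replicate 1. The cause of these shifts was not tested. Cdkn1c had an adjusted p of 0.0466 with trend and robust eBayes. Differences near 0 changed sign in some settings. With arrayWeights Mcm2 measured 0.021, Cdc6 0.032 and Cdc20 0.0056. With sample medians subtracted Mcm3 measured -0.0023, and with the mean of probes Ccnb1 measured 0.028. After quantile normalization Mcm2 measured 0.014, Gins2 -0.027 and Rrm1 0.0018. The scanner signals of 5 arrays lack c-Maf KO replicate 1. With these, over the 75th percentile, Mcm2 measured 0.062, Mcm4 0.014, Cdc6 0.080, Gins2 -0.048, Pcna -0.043, Rrm1 0.069, Ccnb1 0.038, Top2a 0.0022, Plk1 0.0044, Bub1 0.022 and Cdc20 0.036. With normexp, E2f1 measured 0.00046, Mcm2 0.062, Mcm4 0.022, Cdc6 0.0018, Gins2 -0.035, Pcna -0.038, Rrm1 0.085, Ccnb1 0.057, Top2a 0.0065, Aurka 0.0088, Plk1 0.012, Bub1 0.017 and Cdc20 0.052. With 1 sample left out, the range crossed 0 for E2f1 (-0.038 to 0.0086), Cdc6 (-0.12 to 0.082), Ccnb1 (-0.084 to 0.039), Cdc20 (-0.17 to 0.038), Mcm3 (-0.034 to 0.065), Gins2 (-0.047 to 0.13), Cdk6 (-0.061 to 0.25), Mcm2 (-0.056 to 0.064), Rrm1 (-0.076 to 0.070), Mcm4 (-0.065 to 0.016), Pcna (-0.042 to 0.14), Top2a (-0.16 to 0.0038), Plk1 (-0.17 to 0.0061), Bub1 (-0.16 to 0.023) and Cenpa (-0.0047 to 0.11). With 3 samples a group, differences of this size lie within the spread between samples.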
